A study of Mus musculus with 15 samples.

Results

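Transcript levels of 40 genes of glycolysis and of the response to low oxygen were described in cultured mouse mammary epithelial cells. The genes were named as a list, with earlier results of these data known. Of them, 37 had a probe set that carried their name alone, out of 19938 genes measured in this way. Each gene was represented by the probe set with the highest mean over all 15 Affymetrix arrays. Gpi1, Gapdh and Eno1, 3 enzymes of glycolysis, had no such probe set and are only named here.

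The cells came from 8-week-old female mice and were harvested while proliferating, and each of 5 groups held 3 arrays. Arrays labelled p53- Rb- Myc+ came from cells in which Cre recombinase from an adenovirus had deleted p53 and Rb and to which a retrovirus had brought MYC. Arrays labelled p53- Myc+ came from cells with the p53 deletion and the MYC retrovirus, p53- Rb- arrays from cells with both deletions, p53- arrays from cells with the p53 deletion alone, and WT arrays from cells with none of these changes. By their labels, all groups other than WT thus shared the p53 deletion, which was not checked on the arrays. The labels name no mouse strain, no control virus for the WT cells, no oxygen level and no cell density. Nor do they tell whether the 3 arrays of a group stand for different mice or dishes, and the p-values below may thus rest in part on technical spread.

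Glycolysis splits glucose into pyruvate in the cytosol, and lactate dehydrogenase turns pyruvate into lactate when it is not burned in mitochondria. When oxygen is short, the prolyl hydroxylases that mark HIF alpha subunits for destruction slow down, HIF accumulates, and it binds a short core sequence near genes for glucose uptake, glycolysis, lactate export, pH control, blood vessel growth and collagen hydroxylation. MYC is known to raise many of the same glycolytic genes, and tumours of the mammary gland often show high glycolysis in the presence of oxygen. Several of the genes below therefore have more than 1 known activator.

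Values are the intensity per probe set on a linear scale, as the authors deposited it. Array medians ran from 41.28 to 54.9, and the correlation across genes within a group was 0.963 to 0.989. The Rb1 probe set was lower in p53- Rb- arrays (52.7, 55.3 and 64.2) than in p53- arrays (147, 181 and 157), but it was also low in the arrays labelled p53- Myc+ (48, 26.8 and 34.5), whose label leaves Rb intact. The probe set of mouse Myc was lower in arrays labelled Myc+ than in the others, and whether it reads the retroviral MYC is not stated. These libraries are therefore called by their labels, and directions with the Myc+ and Rb- labels rest on them. The label of mammary epithelial cells was not borne out in the arrays labelled Myc+: the summed intensity of 6 epithelial markers (Krt8, Krt18, Krt5, Krt14, Epcam and Cdh1) ranged from 98 to 153.5 in arrays labelled p53- Rb- Myc+ and from 58.17 to 144 in arrays labelled p53- Myc+, against 14070 to 15870 in p53- Rb-, 14290 to 15450 in p53- and 15500 to 16040 in WT arrays. Every change with the Myc+ label below therefore sets cells without these markers against cells with them. The sum of 8 fibroblast markers was 5778 to 7299 in p53- Rb- arrays, against 3197 to 3447 in p53- and 3567 to 4044 in WT arrays, and that of 5 leukocyte markers was highest in WT arrays (1961 to 2348). In cultures measured as a whole, fewer cells of a type and less RNA per cell cannot be told apart. The part of these markers in the results below was not tested.

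**Figure D1:**
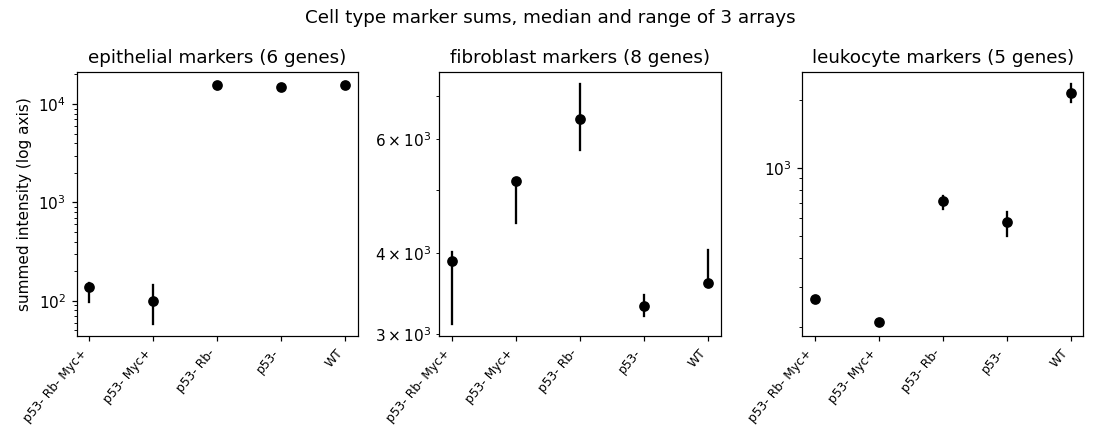
Summed intensity of 6 epithelial, 8 fibroblast and 5 leukocyte marker genes in each group, on log axes. Points are medians and bars the range of 3 arrays. The epithelial sum was at most 153.5 in arrays labelled Myc+ and at least 14070 in the other groups, and the fibroblast sum was highest in p53- Rb- arrays.

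**Figure D2:**
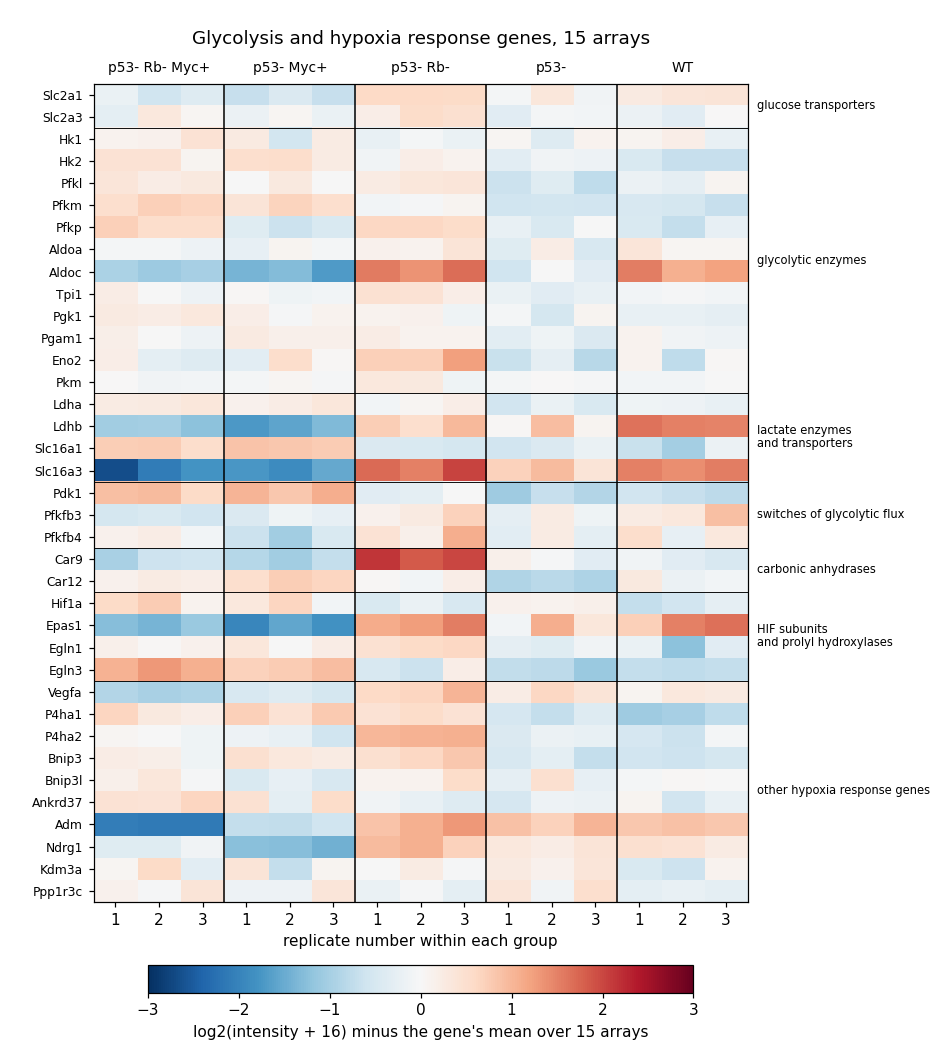
Intensity of the 37 genes on each of 15 arrays, as log2(intensity + 16) minus the gene's mean over all arrays, ordered by role. Red is above and blue below that mean. Slc16a3, Car9, Epas1, Aldoc, Ldhb and Adm separate the arrays labelled Myc+ (left) from p53- Rb- arrays most visibly.

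Changes are log2 fold changes of intensity plus 16 with their SE, from limma's moderated test in 1 fit over all 15 arrays, and rose or fell is written where p, adjusted by the Benjamini-Hochberg method across the 19938 genes, was under 0.05. The added constant shrinks the change of dim probe sets.

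The p53- Rb- arrays were set against the p53- arrays to see how these genes changed with Rb loss in cells that had already lost p53. Of the 37 genes, 22 rose and 0 fell, where 9.36% of all genes rose and 10.4% fell. Their median change was 0.57 on the log2 scale, against -0.08 for all genes. The genes that rose included both glucose transporters, 7 of 12 measured glycolytic enzymes, lactate dehydrogenase A and the lactate exporter Slc16a3, 2 of 3 switches of glycolytic flux, both carbonic anhydrases, 3 of 4 HIF subunits and prolyl hydroxylases and 4 of 10 other hypoxia response genes. For 21 of the 37 genes all 3 p53- Rb- arrays lay above all 3 p53- arrays, and for 1, Hif1a, they lay below, where the arrays did not overlap for 39.98% of all genes. In the same comparison 5 of 8 fibroblast markers and 2 of 4 endothelial markers (Pecam1 and Cdh5) rose. The endothelial sum was 323.5 to 356.4 in p53- Rb-, 167.1 to 231.2 in p53- and 265.3 to 406.5 in WT arrays, and like Aldoc, Car12 and Slc16a3 below it was low in p53- arrays. The part of these markers was not tested.

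The largest change was in Car9, which encodes a carbonic anhydrase at the cell surface that keeps the inside of hypoxic cells from turning acid. Its probe set (10504337) gave 232, 186 and 210.4 in p53- Rb- arrays, against 46.3, 38.9 and 28.1 in p53- and 36.4, 28.2 and 24.4 in WT arrays. It gave 12.6, 20.3 and 21.2 in arrays labelled p53- Rb- Myc+ and 14.9, 11.5 and 18.2 in arrays labelled p53- Myc+. Car9 was thus high in the p53- Rb- group alone, with no overlap with any other array. It rose by 2.08 ± 0.17 over p53- (SE, 3 arrays per group, adjusted p = 8.25e-08) and by 2.31 ± 0.17 over WT (adjusted p = 6.8e-09). The other carbonic anhydrase, Car12, had intensities of 147, 132 and 165 in p53- Rb-, 68.4, 73.7 and 66.6 in p53- and 176, 124 and 132 in WT arrays, so that p53- Rb- arrays overlapped with WT arrays. Car12 rose over p53- by 0.93 ± 0.16 (adjusted p = 0.000258).

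Among the enzymes, Aldoc and Eno2, isozymes of aldolase and enolase best known from the brain, rose most. Aldoc had 262, 224 and 288 in p53- Rb- arrays, against 46.4, 78 and 59.1 in p53- and 258, 182 and 202 in WT arrays, and rose by 1.84 ± 0.18 over p53- (adjusted p = 7.6e-07). Its p53- Rb- values overlapped with those of WT, and p53- arrays were the low ones. The dim Eno2 had 64.9, 64.8 and 99.3 in p53- Rb-, 15.2, 24.7 and 11.6 in p53- and 36.6, 12.9 and 34.2 in WT arrays, and rose by 1.48 ± 0.24 (adjusted p = 0.000216), a change that was 2.13 with 1 and 0.78 with 64 added before the logarithm. The 3 phosphofructokinase genes, which control the committed step of glycolysis, all rose: Pfkl by 0.90, Pfkp by 0.83 and Pfkm by 0.57. Tpi1, triose phosphate isomerase, rose by 0.62. The other 5 enzyme genes, Hk1, Hk2, Aldoa, Pgk1 and Pkm, which encode a pair of hexokinases, aldolase A, phosphoglycerate kinase and pyruvate kinase, did not pass, at -0.08, 0.25, 0.41, 0.20 and 0.19.

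The 2 glucose transporter genes rose by smaller amounts. Slc2a1, which encodes GLUT1, had 1344, 1346 and 1329 in p53- Rb- arrays, against 845, 1121 and 825 in p53- and 1065, 1139 and 1164 in WT arrays. The p53- Rb- arrays were the highest of all and close to each other, while p53- replicate 2 lay near the WT arrays. Slc2a1 rose by 0.53 ± 0.16 (adjusted p = 0.024) and Slc2a3, the GLUT3 gene, by 0.57 ± 0.18 (adjusted p = 0.0254). Slc2a3 was dim, with a mean of 47.43 in p53- Rb- and 26.51 in p53- arrays. Its change ran from 0.30 to 0.81 across the alternatives.

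At the lactate end of the pathway, Slc16a3 encodes the transporter that exports lactate from glycolytic cells. It had 916, 797 and 1138 in p53- Rb- arrays, against 446, 536 and 354 in p53- and 790.4, 736 and 805 in WT arrays, and rose by 1.07 ± 0.20 (adjusted p = 0.00083). The p53- Rb- arrays all lay above the p53- arrays and overlapped with the WT arrays. Ldha, the lactate dehydrogenase subunit that favours lactate formation, had 2423, 2661 and 2957 in p53- Rb-, 1702, 2208 and 1845 in p53- and 2333, 2303 and 2197 in WT arrays and rose over p53- by 0.48 ± 0.15 (adjusted p = 0.0284). Slc16a1, a lactate and pyruvate carrier, and Ldhb did not pass, at -0.08 and 0.39. Pdk1, a kinase that switches off pyruvate dehydrogenase, had 114, 118 and 147 in p53- Rb-, 62.8, 86.3 and 73.5 in p53- and 93.9, 85.6 and 78.8 in WT arrays. It rose over p53- by 0.66 ± 0.17 (adjusted p = 0.00732). Pfkfb4, which makes the activator fructose 2,6-bisphosphate, rose by 0.68 although its arrays overlapped, and Pfkfb3 did not pass at 0.42. Pfkfb4 was dim, with a mean of 50.88 in p53- Rb- and 24.75 in p53- arrays. Its change ran from 0.36 to 0.98 across the alternatives.

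Of the genes for HIF alpha subunits, Epas1, which encodes HIF-2 alpha, rose and Hif1a did not pass. Epas1 had 217, 239.6 and 294 in p53- Rb- arrays, against 85.6, 210.1 and 118 in p53- and 159.5, 287 and 322 in WT arrays, and rose by 0.86 ± 0.25 (adjusted p = 0.0179). Its p53- values were widely spread, with replicate 2 close to the p53- Rb- arrays. Hif1a had 339, 411 and 336 in p53- Rb-, 519, 506 and 528 in p53- and 283, 314 and 391 in WT arrays. All p53- Rb- arrays were below all p53- arrays, but the change missed the threshold (-0.50 ± 0.20, adjusted p = 0.0745). HIF is mainly controlled through the stability of its protein, which arrays do not measure. The prolyl hydroxylase genes Egln1 and Egln3, which act on HIF alpha and are themselves induced by it, rose by 0.80 and 0.57.

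Among the other hypoxia response genes, P4ha1 and P4ha2, the catalytic subunits of collagen prolyl hydroxylase, and Bnip3, a mitochondrial protein of mitophagy and cell death, rose as well. P4ha2 had 548, 570.4 and 575 in p53- Rb-, 195, 234 and 227 in p53- and 184, 164 and 256 in WT arrays and rose over p53- by 1.31 ± 0.17 (adjusted p = 1.99e-05). P4ha1 had 367, 400.0 and 367 in p53- Rb-, 186, 158 and 202 in p53- and 119, 127 and 153 in WT arrays and rose over p53- by 1.00 ± 0.17 (adjusted p = 0.000231). Bnip3 had 570.5, 625 and 710.3 in p53- Rb-, 282, 326 and 239.5 in p53- and 267, 255 and 273 in WT arrays and rose over p53- by 1.13 ± 0.16 (adjusted p = 5.04e-05). In all 3 the p53- Rb- arrays lay above every p53- and every WT array. Ndrg1, a differentiation and stress gene, rose by 0.60. Vegfa, the vascular growth factor, did not pass: it had 1240, 1273 and 1652 in p53- Rb- arrays, against 954, 1265 and 1060 in p53- arrays, which overlapped (0.34 ± 0.16, adjusted p = 0.143). Adm (0.22), Bnip3l (0.27), Ankrd37 (0.03), Kdm3a (-0.19) and Ppp1r3c (-0.43) did not pass either.

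Of the 22 genes that rose with Rb loss, 14 kept their call under every alternative tried, among them Car9, Aldoc, Eno2, Slc16a3, P4ha1, P4ha2, Bnip3 and the 3 phosphofructokinase genes. The calls of Slc2a1, Slc2a3, Pgam1, Ldha, Pfkfb4, Epas1 and Egln3 each ended without p53- replicate 1 (adjusted p from 0.05496), without p53- replicate 3 (from 0.05808) and without p53- Rb- replicate 3. Leaving out p53- Rb- replicate 3 also ended that of Pdk1 and left 14 calls. Slc2a1, Slc2a3, Pgam1, Ldha and Pfkfb4 lost theirs without further single arrays, Pgam1 without 11 of the 15 in all. Processing ended some of these calls too. With 1 added before the logarithm, Pgam1, Pfkfb4, Epas1 and Egln3 lost theirs, and with 64 added Pfkfb4 did. Quantile normalization ended those of Pgam1 and Ldha, and a fit of only the arrays of the groups compared those of Pgam1 and Egln3.

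HIF binds a core of the letters ACGTG or GCGTG on either strand (CACGT or CACGC where it lies on the other one). The promoters of the 6 genes with the largest rise among those with a single start site in the table are printed to show whether these letters stand near their starts. Sequences are from RefSeq on build GRCm38.p6, from 250 bases before to 50 bases after the start of the gene and in its direction, with each core in capitals on whichever strand it lies. The windows are Car9 at chr4:43506776-43507075, plus strand, Eno2 at chr6:124769624-124769923, minus strand, Slc16a3 at chr11:120948817-120949116, plus strand, P4ha1 at chr10:59323046-59323345, plus strand, P4ha2 at chr11:54100674-54100973, plus strand and Bnip3 at chr7:138909457-138909756, minus strand.
Car9: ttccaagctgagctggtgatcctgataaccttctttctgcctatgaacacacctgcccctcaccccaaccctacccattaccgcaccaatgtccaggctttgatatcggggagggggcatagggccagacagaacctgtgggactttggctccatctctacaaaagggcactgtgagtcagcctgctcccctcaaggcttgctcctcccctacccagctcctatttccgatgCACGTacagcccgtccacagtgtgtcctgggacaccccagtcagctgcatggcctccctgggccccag
Eno2: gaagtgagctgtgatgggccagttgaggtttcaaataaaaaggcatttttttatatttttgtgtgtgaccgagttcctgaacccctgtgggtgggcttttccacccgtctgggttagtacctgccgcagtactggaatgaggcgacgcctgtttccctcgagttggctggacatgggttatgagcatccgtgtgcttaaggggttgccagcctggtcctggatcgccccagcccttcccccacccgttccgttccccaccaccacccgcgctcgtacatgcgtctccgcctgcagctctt
Slc16a3: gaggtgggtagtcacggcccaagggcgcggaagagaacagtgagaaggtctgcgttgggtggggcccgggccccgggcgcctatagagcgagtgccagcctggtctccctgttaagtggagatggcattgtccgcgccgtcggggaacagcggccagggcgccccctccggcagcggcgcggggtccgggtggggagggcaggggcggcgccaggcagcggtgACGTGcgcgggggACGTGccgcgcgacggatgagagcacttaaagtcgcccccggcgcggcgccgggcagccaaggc
P4ha1: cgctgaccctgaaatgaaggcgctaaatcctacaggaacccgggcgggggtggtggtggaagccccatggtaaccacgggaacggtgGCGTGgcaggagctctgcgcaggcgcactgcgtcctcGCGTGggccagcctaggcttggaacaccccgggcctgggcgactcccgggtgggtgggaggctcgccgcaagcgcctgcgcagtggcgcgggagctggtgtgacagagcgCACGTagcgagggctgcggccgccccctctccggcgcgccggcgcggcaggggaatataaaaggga
P4ha2: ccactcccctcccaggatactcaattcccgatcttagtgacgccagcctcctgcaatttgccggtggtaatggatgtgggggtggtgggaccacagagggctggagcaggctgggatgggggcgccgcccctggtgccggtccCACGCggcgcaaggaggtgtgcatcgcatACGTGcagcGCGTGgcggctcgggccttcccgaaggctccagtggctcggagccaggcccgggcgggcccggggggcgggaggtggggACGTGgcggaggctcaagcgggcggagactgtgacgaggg
Bnip3: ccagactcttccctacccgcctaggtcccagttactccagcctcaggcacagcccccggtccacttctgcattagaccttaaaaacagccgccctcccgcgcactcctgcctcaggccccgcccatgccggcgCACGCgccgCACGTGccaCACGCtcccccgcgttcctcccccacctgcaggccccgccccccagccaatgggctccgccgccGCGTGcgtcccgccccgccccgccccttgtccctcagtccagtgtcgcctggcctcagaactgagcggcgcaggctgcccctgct

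The Car9 window held 1 core, 18 bases before the start, on the opposite strand. The Slc16a3 window held 2, P4ha1 3, P4ha2 4 and Bnip3 5, of which a pair overlaps in the E-box CACGTG, while Eno2 held 0. Of the 40 genes, 36 had a promoter in the table, and 32 of these (88.89%) held at least 1 core in at least 1 window, against 12628 of 27025 genes of the table (46.73%). The share was 16 of 19 among genes that rose with Rb loss and 14 of 14 among measured genes that were not called. Counted per promoter window, which takes account of genes with several start sites, it was 20 of 25 (80%) and 16 of 22 (72.73%). Over all windows of the table it was 14380 of 32851 (43.77%). The E-box CACGTG, known to bind MYC and containing the core, stood in 7 of 36 (19.44%) against 8.093% of all genes. These windows are rich in G and C, with a median of 61.67% against 52.67% over all windows. The part of base composition in these shares was not tested. A match of letters is a description and not a binding site.

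Set against WT cells, p53- Rb- cells had 12 of the 37 genes higher and 1 lower, where 10.8% of all genes rose and 3.75% fell. This comparison shares the p53- Rb- arrays with the previous one, so the 2 are given side by side and not as separate support. Car9 (2.31 over WT, 2.08 over p53-), P4ha2 (1.44 and 1.31), P4ha1 (1.41 and 1.00), Bnip3 (1.21 and 1.13), Egln1 (1.14 and 0.80), Eno2 (1.1 and 1.48) and Pfkp (1.06 and 0.83) rose in both. Slc2a3 (0.58), Pfkm (0.55) and Ndrg1 (0.51) also rose in both. All other genes that rose over p53- did not pass against WT. Among them were Aldoc (0.26), Slc16a3 (0.27), Car12 (0.04) and Epas1 (0.01). The rest were Slc2a1 (0.25), Ldha (0.23), Pdk1 (0.47), Pfkl (0.43), Tpi1 (0.43), Pgam1 (0.20), Pfkfb4 (0.36) and Egln3 (0.42). The median change of the 37 genes over WT was 0.27, against 0.04 for all genes. Hk2, the inducible hexokinase, rose over WT (0.68 ± 0.16, adjusted p = 0.00725). Ldhb fell against WT (-0.81 ± 0.20, adjusted p = 0.0102). Fibroblast markers were higher here too, in 6 of 8, and 3 of 5 leukocyte markers (Cd14, Lyz2 and Cd3e) were lower. The leukocyte sum was 660.4 to 754.8 in p53- Rb- arrays, against 1961 to 2348 in WT arrays. The part of these markers was not tested. The calls of Slc2a3, Ldhb, Vegfa and Ndrg1 ended without p53- Rb- replicate 2 (adjusted p from 0.05263 to 0.1363), and those of Slc2a3, Vegfa and Ndrg1 also without WT replicate 2 (from 0.05286 to 0.1276). Quantile normalization ended those of Vegfa and Ndrg1, and centring each array on its median that of Vegfa. A fit of only the arrays of the groups compared ended those of Slc2a3, Vegfa and Ndrg1.

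The p53- cells were compared with WT cells to ask what changed with the p53 deletion and its virus, which cannot be told apart here. Of the 37 genes, 7 fell and 2 rose, where 9.72% of all genes fell and 19.3% rose. The median change was -0.04, against 0.12 for all genes. The largest falls were in Aldoc (-1.58 ± 0.18, adjusted p = 2.6e-06), Ldhb (-1.20 ± 0.20, adjusted p = 0.000189), Car12 (-0.89 ± 0.16, adjusted p = 0.000271), Epas1 (-0.85 ± 0.25, adjusted p = 0.0136) and Slc16a3 (-0.80 ± 0.20, adjusted p = 0.00569). Ldhb, the lactate dehydrogenase subunit that favours pyruvate formation, had 198, 384 and 206 in p53- arrays, against 634, 585 and 572 in WT arrays, with p53- replicate 2 apart from the other two but below every WT array. Pfkl (-0.47) and Pfkfb3 (-0.54) fell as well.

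Hif1a rose in p53- over WT arrays by 0.64 ± 0.20 (adjusted p = 0.0176), and all p53- arrays were above all WT arrays. Ppp1r3c, a regulator of glycogen synthesis, had 25.1, 13.8 and 29.7 in p53- arrays, against 10.3, 11.4 and 10.3 in WT arrays, near the bottom of the scale, and rose by 0.52 ± 0.18 (adjusted p = 0.0385). The leukocyte marker sum was 499.7 to 638.2 in p53- arrays, against 1961 to 2348 in WT arrays. Of the 5 leukocyte markers, 3 fell (Cd14, Cd68 and Lyz2) and 1, Ptprc, rose. Of 4 endothelial markers, 2 fell (Pecam1 and Cdh5) and 1, Kdr, rose. Only the falls of Aldoc, Ldhb, Slc16a3 and Car12 held under every alternative, and the other 5 calls all ended without p53- replicate 3 (adjusted p from 0.06013 to 0.1983). Of these, Ppp1r3c also lost its call without p53- replicate 1 or any single WT array, and Pfkl, Pfkfb3 and Epas1 lost theirs without p53- replicate 1 or WT replicate 3. With 1 added before the logarithm, Pfkfb3 and Epas1 lost theirs. That of Ppp1r3c ended with 64 added, with centred arrays and with quantile normalization. A fit of only the arrays of the groups compared ended those of Pfkl, Pfkfb3 and Ppp1r3c.

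The Rb- label was compared a second time between the arrays labelled p53- Rb- Myc+ and p53- Myc+, which share no array with the first comparison. Rb1 was at 20, 18.3 and 17.9 in arrays labelled p53- Rb- Myc+, against 48, 26.8 and 34.5 in arrays labelled p53- Myc+, which are themselves below the p53- Rb- arrays, so the comparison rests on the labels and is not shown to be one of Rb loss. Here 2 of the 37 genes rose, 1 fell and 34 did not pass, where 3.29% of all genes rose and 1.4% fell. Pfkp, the platelet phosphofructokinase, had 339, 299.5 and 299 in arrays labelled p53- Rb- Myc+, against 153, 123 and 144 in arrays labelled p53- Myc+, and 319, 316 and 303 in p53- Rb-, 169.5, 142 and 199 in p53- and 142, 117 and 168 in WT arrays. The 6 arrays labelled Rb- were thus above the 9 others whatever the Myc label. Pfkp rose by 1.08 ± 0.16 with the Myc+ label (adjusted p = 0.000123) and by 0.83 ± 0.16 without it (adjusted p = 0.00113).

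The Ndrg1 intensities were 267, 263 and 322 in arrays labelled p53- Rb- Myc+, 136, 134 and 118 in arrays labelled p53- Myc+, 679.9, 739.6 and 572 in p53- Rb- arrays, 436, 405 and 455 in p53- arrays and 486, 474 and 417 in WT arrays. Ndrg1 rose with the Rb- label in both settings, by 1.04 ± 0.15 with the Myc+ label (adjusted p = 8.63e-05) and by 0.60 ± 0.15 without it (adjusted p = 0.00914). Pfkp and Ndrg1 were 2 of the 22 genes that rose without the Myc+ label (9.091%) and 2 of the 2 that rose with it, where 181 of all genes rose in both, 9.695% of the first and 27.59% of the second. The Adm intensities were 19.7, 18.6 and 18.6 in arrays labelled p53- Rb- Myc+, 74.8, 74 and 82.5 in arrays labelled p53- Myc+, 256, 299 and 355 in p53- Rb- arrays, 257, 226 and 289 in p53- arrays and 248, 259.5 and 245 in WT arrays. Adm, which encodes the vasodilator adrenomedullin, fell with the Rb- label in arrays labelled Myc+ (-1.41 ± 0.15, adjusted p = 1.22e-06), where its p53- Rb- Myc+ arrays stood near the bottom of the scale, and did not pass without it (0.22 ± 0.15, adjusted p = 0.335). Pfkfb4 lay close to the threshold at 0.81 ± 0.24 (adjusted p = 0.0543). It passed in 8 of 25 alternatives. Among them was the fit of only the arrays of these 2 groups, without a block (adjusted p = 0.0304) and with the replicate number as a block (adjusted p = 0.0423). With that block the count was 3 that rose.

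The difference between the 2 Rb comparisons was tested directly, as the change with the Myc+ label minus the change without it. It was below 0 for 13 of the 37 genes and above 0 for 0, where 4.86% of all genes lay below 0 and 8.78% above. The median was -0.42, against 0.13 for all genes. Car9 had the largest difference, -1.94 ± 0.25 (adjusted p = 1.38e-05), with a change of 0.14 with the Myc+ label and of 2.08 without it. Eno2 differed by -1.72 ± 0.35 (adjusted p = 0.00198), Adm by -1.63 ± 0.22 (adjusted p = 2.79e-05), Slc16a3 by -1.53 ± 0.29 (adjusted p = 0.00112), Bnip3 by -1.39 ± 0.23 (adjusted p = 0.000287) and Aldoc by -1.38 ± 0.25 (adjusted p = 0.000868). Car12 (-1.37), P4ha1 (-1.26), P4ha2 (-1.01), Egln1 (-0.87), Pdk1 (-0.82), Vegfa (-0.80) and Pfkl (-0.70) were the others. In arrays labelled Myc+, Car9 (11.5 to 21.2) and Aldoc (13 to 33) stood near the bottom of the scale, where the added constant shrinks a change. The order of the largest differences depends on the setting. Across the alternatives, Car9 ran from -2.21 to -1.37, Eno2 from -2.47 to -0.91 and Adm from -2.20 to -0.95. Of 8 fibroblast markers, 6 were below 0 and 1, Thy1, was above 0. The calls of Pfkl, Pdk1, Egln1 and Vegfa ended without p53- replicate 1 (adjusted p from 0.06578 to 0.09636), without p53- replicate 3 (0.05022 to 0.1262) and without p53- Rb- replicate 3 (0.0663 to 0.09758). Pfkl and Egln1 each lost the call without any of 11 single arrays. Both also lost it with 1 added before the logarithm and with quantile normalization.

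**Figure D3:**
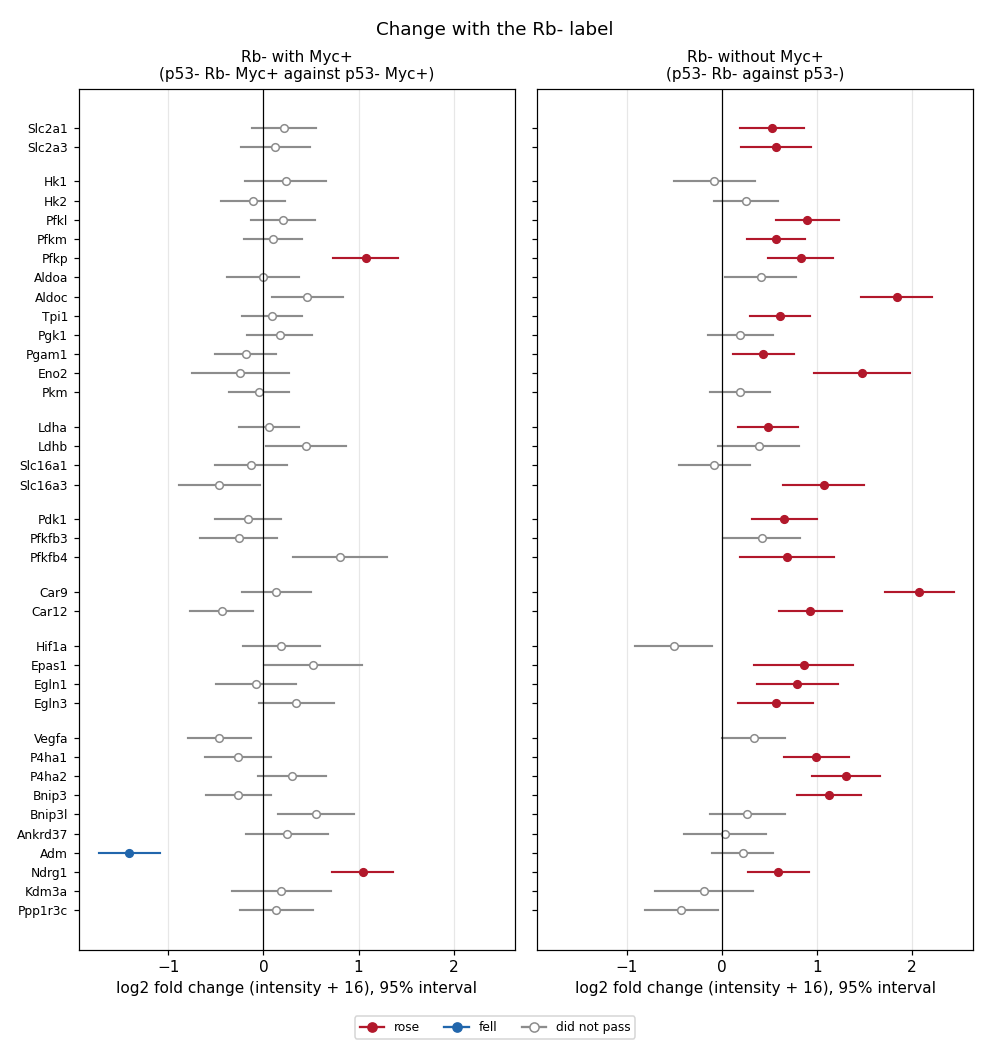
Change of each of the 37 genes with the Rb- label, as log2 fold change of intensity plus 16 with its 95% interval. Left, p53- Rb- Myc+ against p53- Myc+; right, p53- Rb- against p53-. On the right 22 genes rose, while on the left Pfkp and Ndrg1 rose and Adm fell.

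The Myc+ label was compared in cells without and with the Rb- label, between arrays labelled p53- Myc+ and p53- and between arrays labelled p53- Rb- Myc+ and p53- Rb-, which share no array. Without Rb-, 12 of the 37 genes rose and 9 fell, where 13.1% of all genes rose and 20.2% fell. With Rb-, 6 rose and 13 fell, where 17.6% rose and 18.7% fell. The count without Rb- depends on the scaling. With each array centred on its median 16 rose and 9 fell, with Tpi1, Pgk1, Egln1 and Ankrd37 gained. The median change of all genes was then 0.11 in place of -0.09. Genes of the same role went both ways. The pyruvate dehydrogenase kinase Pdk1, the carrier Slc16a1, the muscle phosphofructokinase Pfkm and the prolyl hydroxylase Egln3 rose in both comparisons. Slc2a1, Slc16a3, Car9, Epas1, Vegfa, Adm and Ndrg1 fell in both. All 9 genes that fell without Rb- also fell with it (9 of 13, 69.23%), against 63.92% and 69.17% over all genes. Of those that rose, 4 were shared (33.33% of 12 and 66.67% of 6), against 50.88% and 37.67% over all genes. All 6 epithelial markers fell in both comparisons, with a median of -6.07 on the log2 scale without Rb- and -5.89 with it. Of 8 fibroblast markers, 5 rose and 2 fell without Rb-, and 1 rose and 6 fell with it. Of 5 leukocyte markers 3 fell in each, and 1 rose with Rb-. Of 4 endothelial markers, 3 fell without Rb- and 2 with it.

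The Pdk1 intensities were 289.6, 300.3 and 226 in arrays labelled p53- Rb- Myc+, 315, 269 and 332 in arrays labelled p53- Myc+, 114, 118 and 147 in p53- Rb- arrays, 62.8, 86.3 and 73.5 in p53- arrays and 93.9, 85.6 and 78.8 in WT arrays. The 6 arrays labelled Myc+ lay above all others. Pdk1 rose with the Myc+ label by 1.84 ± 0.17 without Rb- (adjusted p = 5.83e-09) and by 1.015 with it (adjusted p = 3.52e-05). The Egln3 intensities were 423, 509 and 426 in arrays labelled p53- Rb- Myc+, 328, 342 and 385 in arrays labelled p53- Myc+, 136, 119.6 and 227 in p53- Rb- arrays, 112, 107 and 81.7 in p53- arrays and 113, 108 and 114 in WT arrays. Egln3 likewise did not overlap between the Myc labels, and rose by 1.67 ± 0.19 without Rb- (adjusted p = 2.18e-07) and by 1.45 ± 0.19 with it (adjusted p = 1.84e-06).

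The Slc16a1 intensities were 461, 473 and 400.3 in arrays labelled p53- Rb- Myc+, 504, 485 and 469.6 in arrays labelled p53- Myc+, 197, 192 and 183 in p53- Rb- arrays, 177, 197 and 236 in p53- arrays and 166, 127 and 237 in WT arrays. The Myc+ arrays were again all above the others. Slc16a1 rose by 1.21 ± 0.18 without Rb- (adjusted p = 1.23e-05) and by 1.15 ± 0.18 with it (adjusted p = 2.16e-05). The other lactate carrier went the opposite way: Slc16a3 had 29, 51 and 66.4 in arrays labelled p53- Rb- Myc+, against 916, 797 and 1138 in p53- Rb- arrays, and 69.4, 61.3 and 82.3 in arrays labelled p53- Myc+, against 446, 536 and 354 in p53- arrays. Slc16a3 fell without Rb- (-2.39 ± 0.20, adjusted p = 2.42e-09) and with it (-3.93 ± 0.20, adjusted p = 5.11e-13), the largest change of any of the 37 genes in the 7 comparisons. Pfkm rose by 1.09 without Rb- and by 0.63 with it.

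Lactate dehydrogenase also divided by subunit. Ldha had 3055, 3100 and 3214 in arrays labelled p53- Rb- Myc+, against 2423, 2661 and 2957 in p53- Rb- arrays, which did not overlap, and did not pass (0.22 ± 0.15, adjusted p = 0.266). In arrays labelled p53- Myc+ it had 2782, 3006 and 3224, above every p53- array, and rose by 0.65 ± 0.15 (adjusted p = 0.00173). Ldhb had 85.3, 88 and 73.3 in arrays labelled p53- Rb- Myc+, against 333, 280.4 and 397 in p53- Rb- arrays, and 47.2, 54.1 and 67.9 in arrays labelled p53- Myc+. Ldhb fell in both comparisons (-1.89 ± 0.20, adjusted p = 1.06e-07 without Rb- and -1.83 ± 0.20, adjusted p = 1.76e-07 with it). Slc2a1 had 773, 581 and 673 in arrays labelled p53- Rb- Myc+ and 541, 650.3 and 545 in arrays labelled p53- Myc+, below every array of the other groups, and its changes were -0.66 ± 0.16 without Rb- (adjusted p = 0.00261) and -0.98 ± 0.16 with it (adjusted p = 4.17e-05).

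Among the targets and subunits of HIF, Epas1 had 28.5, 24.4 and 33.5 in arrays labelled p53- Rb- Myc+ and 11.4, 20.3 and 14.4 in arrays labelled p53- Myc+, the lowest of all groups, and fell in both comparisons (-2.22 ± 0.25, adjusted p = 1.83e-07 and -2.57 ± 0.25, adjusted p = 2.04e-08). Hif1a had 717, 811 and 507 in arrays labelled p53- Rb- Myc+ and 591, 745 and 446 in arrays labelled p53- Myc+. It rose with Rb- (0.86 ± 0.20, adjusted p = 0.00137) and did not pass without it (0.16 ± 0.20, adjusted p = 0.579). The vascular growth factor Vegfa had 432, 408 and 422 in arrays labelled p53- Rb- Myc+, against 1240, 1273 and 1652 in p53- Rb- arrays, and 579.5, 621 and 557 in arrays labelled p53- Myc+, against 954, 1265 and 1060 in p53- arrays. It fell in both, with no overlap (-1.67 ± 0.16, adjusted p = 1.65e-08 with Rb- and -0.87 ± 0.16, adjusted p = 0.000143 without). Ndrg1 changed by -1.18 with Rb- and -1.63 without, and Adm by -3.18 and -1.55.

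Other genes changed differently with the Myc+ label in the 2 backgrounds, and the differences are those tested above. Bnip3 had 468, 458 and 363 in arrays labelled p53- Rb- Myc+ and 568, 504 and 478 in arrays labelled p53- Myc+, levels between those of p53- Rb- and p53- arrays. It rose without Rb- (0.84 ± 0.16, adjusted p = 0.000249) and fell with it (-0.55 ± 0.16, adjusted p = 0.0103), although the fall ended without p53- Rb- replicate 3 (adjusted p = 0.05192) or p53- Rb- Myc+ replicate 3 (0.06016). Eno2 had 40.8, 24.2 and 21.6 in arrays labelled p53- Rb- Myc+ and 23.9, 54.6 and 34.4 in arrays labelled p53- Myc+. It also rose without Rb- (0.67 ± 0.24, adjusted p = 0.0374) and fell with it (-1.04, adjusted p = 0.00169), but the rise ended without p53- replicate 1 or 3 or p53- Myc+ replicate 2 or 3 (adjusted p up to 0.2024) and with 1 or 64 added in place of 16 (0.06544 and 0.08622). P4ha1 had 426, 332 and 309 in arrays labelled p53- Rb- Myc+ and 449, 367 and 472 in arrays labelled p53- Myc+, and rose without Rb- (1.17). P4ha2 had 281, 266 and 243 in arrays labelled p53- Rb- Myc+ and 239, 226 and 172 in arrays labelled p53- Myc+, and fell with Rb- (-1.06). Car12 had 158, 169.8 and 165 in arrays labelled p53- Rb- Myc+ and 208, 249 and 229 in arrays labelled p53- Myc+, and rose without Rb- (1.51 ± 0.16, adjusted p = 5.9e-08), whereas Car9 fell in both. Aldoc had 33, 28.4 and 31.4 in arrays labelled p53- Rb- Myc+ and 19.7, 22.4 and 13 in arrays labelled p53- Myc+, the lowest of all groups, and its changes were -2.54 with Rb- and -1.16 without.

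**Figure D4:**
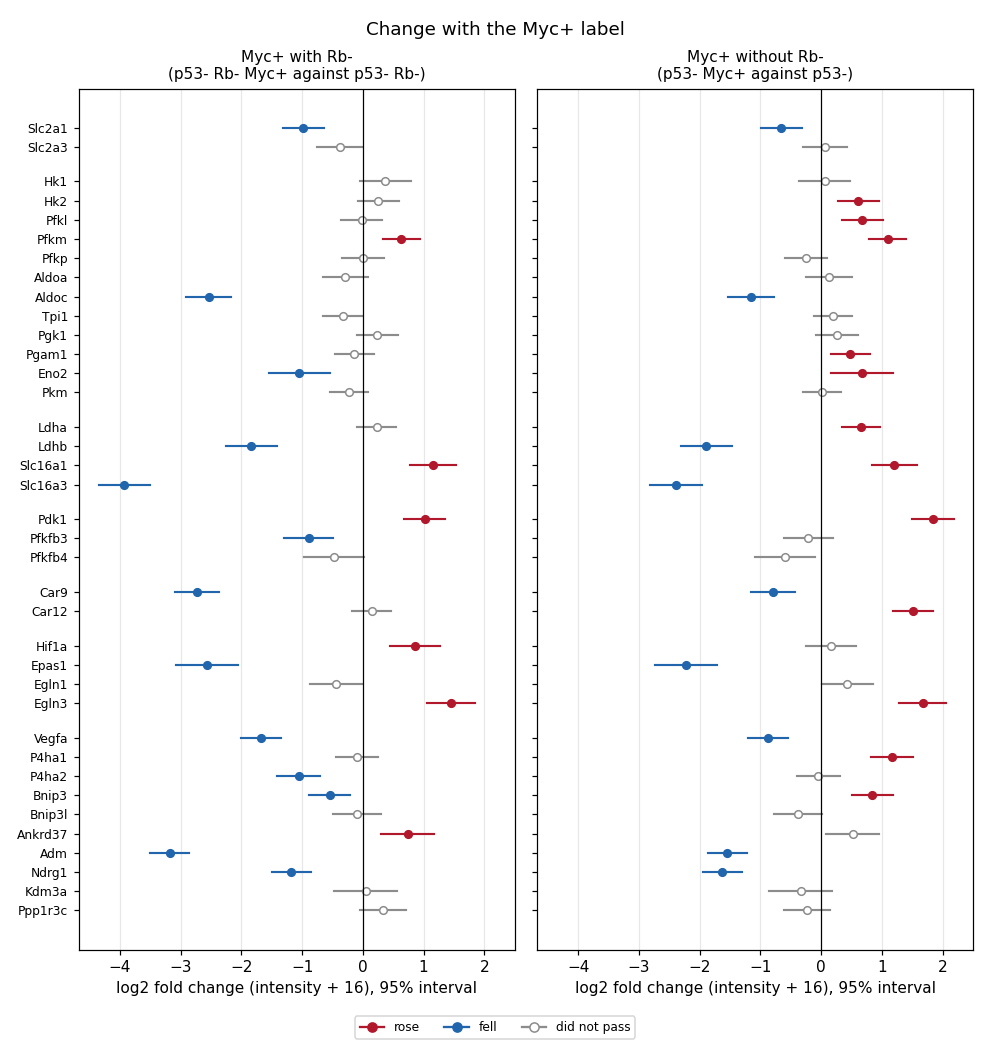
Change of each of the 37 genes with the Myc+ label, as log2 fold change of intensity plus 16 with its 95% interval. Left, p53- Rb- Myc+ against p53- Rb-; right, p53- Myc+ against p53-. Slc16a3, Adm, Epas1 and Ldhb fell and Pdk1, Egln3 and Slc16a1 rose in both.

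**Figure D5:**
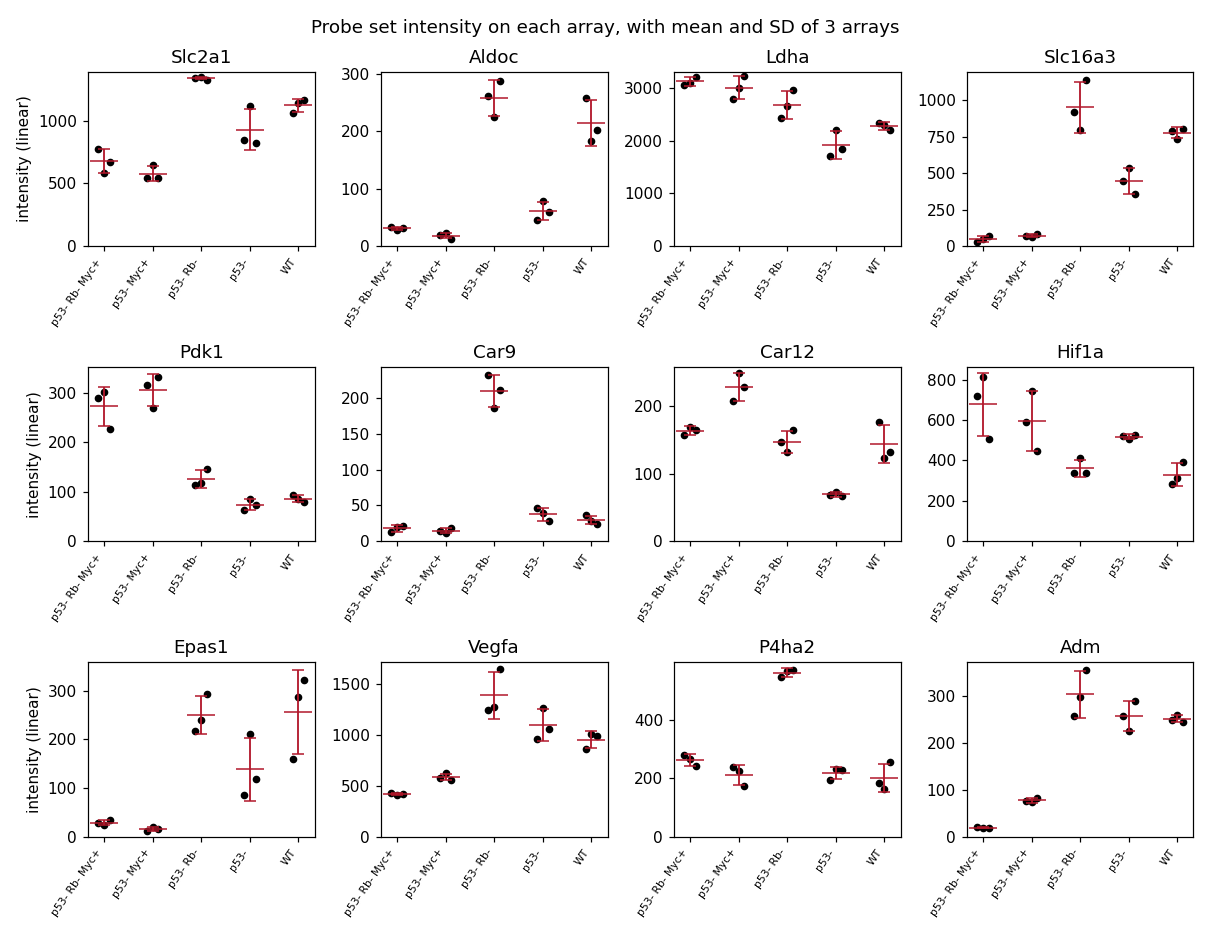
Probe set intensity of 12 of the genes on every array, on linear axes that start at 0. Lines are the mean and SD of 3 arrays. Car9 and P4ha2 were high in p53- Rb- arrays, Pdk1 in arrays labelled Myc+, and Adm was lowest in arrays labelled p53- Rb- Myc+.

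For 5 genes it was checked whether the values depend on which of their probe sets is read. Probe sets of this array are numbered along the chromosomes: of 21766 with a single name, 96.82% carried the name of a gene on the chromosome of most of the 20 named probe sets on each side. For Hk1, Pgk1, Pkm, Ldhb and Bnip3l the probe set with the highest mean stood among genes of another chromosome, and whether it reads a near-identical copy there was not tested, and for each of them a second probe set stood among its own. This check was added after the values were seen. For Hk1, which encodes the hexokinase of most tissues, the 2 probe sets disagreed. The second one (10369541) gave 205, 226 and 165 in arrays labelled p53- Rb- Myc+ and 120.2, 152 and 150.0 in arrays labelled p53- Myc+, against 819, 826 and 745 in p53- Rb-, 544, 674 and 624 in p53- and 537, 486 and 560.3 in WT arrays. The Myc+ arrays were all far below the others on it, while the first one (10414661) overlapped between p53- Myc+ and p53- arrays, at 1143, 640.0 and 1133 and 991, 727 and 1021. On the second probe set Hk1 fell with the Myc+ label without Rb- (-2.01 ± 0.16, adjusted p = 7.18e-10) and with it (-1.93 ± 0.16, adjusted p = 1.54e-09), and rose in p53- Rb- over WT arrays (0.58 ± 0.16, adjusted p = 0.0173). On the first it did not pass in any comparison.

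The second probe set of Ldhb fell in the same 4 comparisons as the first, at -1.32 ± 0.21 in p53- against WT and -1.61 ± 0.21 with the Myc+ label and Rb-. That of Pkm, pyruvate kinase of most tissues, fell with the Myc+ label and Rb- (-0.40 ± 0.14, adjusted p = 0.0319), where the first did not pass (-0.23 ± 0.15, adjusted p = 0.252). The other probe set of Pgk1 holds the same values as the first on all 15 arrays and adds no evidence, and that of Bnip3l gave changes close to those of the first and did not pass in any comparison. Pgam1 had 2 further probe sets, both among other chromosomes.

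Beyond these genes, 73 others of the same pathways had a probe set. They too were listed with earlier results of these data known. With Rb loss without Myc+, 23 rose and 6 fell, and among 26 further hypoxia-induced genes 11 and 2, where 9.36% of all genes rose and 10.4% fell. Pygl, which breaks down glycogen, rose by 1.91, the hypoxia-induced Tmem45a by 1.81, the collagen lysyl hydroxylase Plod1 by 1.58 and the mitochondrial PEP carboxykinase Pck2 by 1.26. Pdk4, a kinase of pyruvate dehydrogenase induced by fasting, fell (-1.23), as did Edn1, which encodes endothelin (-1.01), Rpe (-0.97) and Dld (-0.85). Against WT, p53- Rb- cells had 14 of the 73 higher and 7 lower (10.8% and 3.75% of all genes), with Pygl at 1.33, Stc2 at 1.29 and Pdk4 at -2.08. In p53- against WT arrays, 20 fell and 5 rose (9.72% and 19.3% of all genes). Those that fell included the stress gene Ddit4 (-1.20), Nos2 (-1.14), Pgm1 (-1.14) and the heme oxygenase gene Hmox1 (-1.12). Rpe (0.89), Dld (0.88), Insig2 (0.74) and Stc2 (0.70) were among those that rose.

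With the Rb- label in arrays labelled Myc+, 7 of the 73 rose and 1 fell (3.29% and 1.4% of all genes). Those that rose included Tmem45a (1.34), the muscle enolase Eno3 (1.16), Pgm1 (0.87) and Ccng2 (0.78), while Angptl4 fell (-0.73). With the Myc+ label without Rb-, 14 rose and 19 fell (13.1% and 20.2% of all genes): Pck2 (1.5), the pyruvate carboxylase gene Pcx (1.47), Eno3 (1.19) and the MYC antagonist Mxi1 (1.11) rose most and Edn1 (-4.21), Bhlhe40 (-2.61), Pdk4 (-1.67) and Nos2 (-1.43) fell most. With Rb-, 10 rose and 25 fell (17.6% and 18.7% of all genes), led by Eno3 (1.75), Pdp2 (1.12) and Dld (1.095) and by Edn1 (-3.21), Pygl (-2.58), Bhlhe40 (-2.28) and Hmox1 (-1.70). There 4 of 5 glycogen genes and 13 of 26 further hypoxia-induced genes fell. The difference of the Rb comparisons was above 0 for 6 of the 73 (8.78% of all genes), with Pdk4 at 1.58 and Rpe at 1.12, and below 0 for 9 (4.86% of all genes), with Pygl at -1.58, Pck2 at -1.34, Plod1 at -1.27 and Lox at -1.25.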

How the data were processed

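Total RNA of 15 samples was amplified and hybridised to Affymetrix arrays. The submitters' processing notes name Affymetrix Expression Console 1.1 as the source of the deposited probe set intensity, on a linear scale. How probes were summarised and arrays scaled is not given in the sources used. Of 35556 probe sets, 21789 had 1 gene symbol in the platform annotation, 1621 had several and 12146 were not listed. Symbols were checked through Entrez numbers against a GRCm38.p6 gene table, which altered 0 of them. For each of the 19938 genes, the probe set brightest on average across the arrays was kept. log2(intensity + 16) was fitted in R 4.3.3 by the functions lmFit and eBayes of limma 3.58.1 (5 group means, 10 residual and 11.78 prior degrees of freedom), with 2-sided tests and Benjamini-Hochberg adjustment over all genes of a comparison. The fit was tested on simulated data. The number of arrays limits the precision.

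Members and gene lists were chosen with earlier results of these data known. Single array values are given for Slc2a1, Ldha, Pdk1, Car9, Vegfa, Bnip3, Hif1a and Epas1 and for up to 4 rising and 4 falling called members with the largest change in each comparison, and up to 4 other pathway genes each way are named. The second probe sets were named after their values were seen. Deviations of arrays with the same replicate number correlated above 0.1 in every pair only between p53- Rb- Myc+ and p53- Myc+ (r = 0.102, 0.192 and 0.379). Those numbers were taken as pairs on these values, since the labels state no pairing. The alternatives changed the added constant, the scaling, the low-level filter, the choice of probe set, array weights, a replicate block, the arrays fitted and each single array.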

Additional observations from a re-analysis of the deposited data

Results flagged for a closer look

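The change with the Rb- label differed between arrays with and without the Myc+ label, by the test of that difference itself, for 13 of the 37 genes, all below 0, where 4.86% of all genes lay below 0 and 8.78% above. The difference, with Myc+ minus without, was -1.94 for Car9, -1.72 for Eno2, -1.63 for Adm, -1.53 for Slc16a3, -1.39 for Bnip3, -1.38 for Aldoc, -1.37 for Car12, -1.26 for P4ha1, -1.01 for P4ha2, -0.87 for Egln1, -0.82 for Pdk1, -0.80 for Vegfa and -0.70 for Pfkl on the log2 scale. The epithelial markers were near the bottom of the scale in all arrays labelled Myc+ and fibroblast markers were highest in p53- Rb- arrays, and their part in these differences was not tested. Rb1 was already low in arrays labelled p53- Myc+, so the Rb- label there is not shown to be Rb loss. Car9 and Aldoc stood near the bottom of the scale in arrays labelled Myc+. The calls of Pfkl, Pdk1, Egln1 and Vegfa did not hold under every alternative.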

How the results depend on the processing

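With 3 arrays per group and dim probe sets such as Eno2 and Ppp1r3c near the bottom of the scale, small changes of such genes could not be resolved. Leaving out 1 array at a time, the number of the 37 genes called ranged from 4 to 11 for p53- against WT (5 without p53- replicate 1 and 4 without p53- replicate 3), 14 to 26 for p53- Rb- against p53- (14 without p53- Rb- replicate 3), 19 to 24 for p53- Myc+ against p53-, 3 to 5 for p53- Rb- Myc+ against p53- Myc+ (5 without p53- replicate 2), 18 to 20 for p53- Rb- Myc+ against p53- Rb-, 9 to 13 for p53- Rb- against WT and 9 to 14 for the difference of the Rb comparisons. The number of all genes called ranged from 3470 to 6094 (lowest without p53- replicate 3), 2098 to 4725 (2098 without p53- Rb- replicate 3, 2130 and 2483 without p53- replicates 3 and 1), 5647 to 6957, 649 to 1032, 5813 to 7631, 1697 to 3167 (1697 and 1736 without p53- Rb- replicates 2 and 1, 1700 without WT replicate 2) and 1762 to 3234 (1762 without p53- replicate 3, 1795 without p53- Rb- Myc+ replicate 2) in the same order. Array weights called 8518 genes for p53- Rb- against p53-, 5254 for p53- Rb- against WT and 5404 for the difference, against 3950, 2903 and 2719, and called 5 members for p53- Rb- Myc+ against p53- Myc+, as did adding 64 before the logarithm. Hk1 reversed in p53- Myc+ against p53- with the mean of its probe sets (-0.48) and with the probe set numbered among its own chromosome (-2.01), an alternative chosen after seeing the data, and on that probe set also in p53- Rb- Myc+ against p53- Rb- (-1.93) and p53- Rb- against WT (0.58). Centring each array on its median gave a median change of all genes of 0.02 in p53- against WT, 0.11 in p53- Myc+ against p53- and -0.0032 in the difference, and quantile normalization gave -0.02, 0.11 and -0.01, against 0.12, -0.09 and 0.13 as reported. Rising calls of all genes were 66.49% in p53- against WT (52.51% centred, 51.63% quantile), 39.22% in p53- Myc+ against p53- (59.19% and 56.17%), 70.16% in p53- Rb- Myc+ against p53- Myc+ (55.83% and 59.44%), 74.23% in p53- Rb- against WT (65.03% and 58.8%) and 64.4% in the difference (45.13% and 53.71%), while 22 members rose and 0 fell in p53- Rb- against p53- when centred, and 20 rose and 1, Hif1a, fell with quantile normalization. In p53- Myc+ against p53-, 16 members rose and 9 fell when centred, and 13 rose and 9 fell with quantile normalization. The replicate block within the 2 paired groups called 4 members and 954 genes for p53- Rb- Myc+ against p53- Myc+. A replicate block over all arrays called 9, 22, 21, 3, 19, 13 and 12 members in the order above. It ended the call of Pfkl in the difference (adjusted p = 0.0522) and no other. That call ended in 14 of 25 alternatives, this block among them. Outside the 2 paired groups the replicate numbers were not taken as pairs. Where an alternative ended a call, the cause was not tested.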
